A study of Mus musculus with 4 samples.

Results

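The genes described here are 8 members of the BCL2 family (Bcl2, Bcl2l1, Mcl1, Bax, Bak1, Bcl2l11, Bbc3 and Bid) and the initiator caspase gene Casp9, 9 of the 25261 genes in the deposited files. They were chosen by name as the core of the mitochondrial pathway of apoptosis, and all 9 were found in the files and passed the filter on low values. Adult neural stem cells of C57BL/6 mice aged 8 weeks were infected with a lentivirus carrying a scrambled shRNA (ctrl, n = 2) or an shRNA against mouse Ogt (shOGT, n = 2), so that lentiviral infection is shared by both groups. The sequence of the shRNA, its promoter and the number of animals or cultures behind the libraries were not given in the sources used here. The p-values therefore measure the spread between these libraries, which may be technical.

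BCL2 proteins decide whether the outer membrane of the mitochondrion is opened. The prosurvival proteins (BCL2, BCL-XL from Bcl2l1, and MCL1) hold the pore-forming effectors BAX and BAK in check. BH3-only proteins such as BIM (from Bcl2l11), PUMA (from Bbc3) and BID relieve that restraint or activate the effectors directly. Cytochrome c released through the pore then assembles with APAF1 and caspase-9 into the apoptosome, which activates the executioner caspases. MCL1 is a short-lived protein and is known to be needed for the survival of neural precursor cells during development, and Bax is known to control the death of newborn cells in the adult brain.

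For the gene whose change passed the test (Mcl1), the pore-forming effector with a textbook link to p53 (Bax) and the founding member of the family (Bcl2), the promoters are shown to set 3 differently built start regions side by side. Each runs 5′ to 3′ on the strand of the gene, from 250 bases before to 50 bases after a RefSeq transcription start on GRCm38.p6. They lie at chr3:95658471-95658770 on the plus strand (Mcl1), chr7:45466849-45467148 on the minus strand (Bax) and chr1:106714241-106714540 on the minus strand (Bcl2). Capitals mark, on either strand, the GC box GGGCGG, the core TGACG of the cyclic AMP response element, the E-box CACGTG, the CCAAT box, the STAT element TTCNNNGAA and the decamer of the p53 response element.
Mcl1: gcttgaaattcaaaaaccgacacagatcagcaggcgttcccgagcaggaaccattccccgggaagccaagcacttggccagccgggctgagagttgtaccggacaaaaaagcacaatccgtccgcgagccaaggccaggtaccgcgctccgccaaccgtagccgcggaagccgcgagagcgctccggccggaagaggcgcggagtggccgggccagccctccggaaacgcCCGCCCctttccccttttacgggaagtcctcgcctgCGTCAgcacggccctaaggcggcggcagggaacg
Bax: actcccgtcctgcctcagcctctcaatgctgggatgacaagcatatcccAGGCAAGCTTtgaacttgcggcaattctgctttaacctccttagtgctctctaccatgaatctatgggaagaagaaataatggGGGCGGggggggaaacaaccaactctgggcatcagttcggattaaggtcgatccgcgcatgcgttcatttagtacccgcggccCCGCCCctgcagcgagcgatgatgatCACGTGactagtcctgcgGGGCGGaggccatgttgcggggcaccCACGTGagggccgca
Bcl2: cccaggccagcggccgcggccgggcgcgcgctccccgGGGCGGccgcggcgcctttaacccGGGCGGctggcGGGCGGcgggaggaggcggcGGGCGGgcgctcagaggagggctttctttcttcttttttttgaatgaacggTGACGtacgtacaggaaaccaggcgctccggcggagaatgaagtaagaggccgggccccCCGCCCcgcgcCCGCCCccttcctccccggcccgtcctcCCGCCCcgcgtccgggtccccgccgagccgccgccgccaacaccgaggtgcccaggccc

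The Mcl1 promoter held 1 GC box and 1 TGACG core, that of Bax 3 GC boxes, 2 E-boxes and 1 p53 decamer, and that of Bcl2 7 GC boxes and 1 TGACG core. Of all 32817 promoters of the same length in the RefSeq table, 35.6% held a GC box, 20.8% the TGACG core, 7.15% the E-box, 37.4% the CCAAT box, 8.29% the STAT element and 8.36% the p53 decamer. The table had 14 start regions for the 9 members, and 12 of them had more G and C than the median promoter (52.7%), from 49.3% to 78.0% in all. Over all start regions of a member, 7 of the 9 members held a GC box, 2 a CCAAT box and 3 the TGACG core. The E-box was present in 2, the p53 decamer in 1, and the STAT element and the TATA box TATAAA (13.6% of all promoters) in 0. These are counts of genes, some with several start regions, whereas the shares are per start region. These matches describe letters in the window and do not show that a factor binds there.

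Each library held between 15697508 and 17753976 reads assigned to genes, as implied by the step between its values. Ogt, the targeted gene, measured 4112 and 4138 in the ctrl libraries and 3379 and 3516 in the shOGT libraries, a fall of 16.4% in the mean (log2 difference -0.26 ± 0.04, SE; limma adjusted p = 0.00876). Ogt was lower in every alternative, at -0.29 to -0.23, and passed the threshold in 7 of 14. The 4 alternatives that leave out 1 library cannot decide whether it passes, because each has 1 lone library in a group. Of the neural stem cell markers, Nes, Sox2, Sox9, Fabp7, Vim and Slc1a3 all measured 2615 or more in every library, while Prom1 and Hes5 measured at most 75.8. Summed over each list, markers of neural stem cells ranged from 130647 to 134265 in ctrl and from 121669 to 126727 in shOGT, those of astrocytes from 14636 to 14875 and from 12556 to 13253, of the oligodendrocyte lineage from 58244 to 59036 and from 59617 to 60574, and of neurons from 15760 to 16292 and from 17658 to 17871. By the test described below, 1 of 8 stem cell markers (Fabp7), 1 of 7 oligodendrocyte lineage markers (Pdgfra) and 2 of 5 astrocyte markers (Aldh1l1 and Slc1a2) were lower, and 1 of 6 neuron markers (Map2) was higher. The sums are carried by a few genes: Map2 made up 15469 of the 15760 for neurons in ctrl 1, and Olig1 and Olig2 together most of the oligodendrocyte lineage sums. Other markers of these lists went the opposite way, with Dcx at 40.9 and 66.5 in ctrl and at 19.1 and 29.2 in shOGT, and Cspg4, Sox10 and Mbp below both ctrl values in both shOGT libraries, without passing the test. The lower stem cell sum came mainly from Fabp7, whose mean changed by -28.6%, from 29997 to 21426. The mean of Slc1a3 changed by -5.32%, whereas that of Vim rose by 6.6% and that of Nes by 7.27%, the latter with overlapping groups. Sox2 and Sox9 changed by -1.72% and 0.96%, and Prom1 and Hes5 are too low to weigh in the sum. In the astrocyte list the mean of Gfap was 28.5% higher with knockdown, mainly through shOGT 2 (1762, against 1185 in shOGT 1). Both values exceeded those of ctrl (1125 and 1169), without passing the test (limma adjusted p = 0.234). The mean of S100b was 5.98% higher with overlapping groups, that of Aqp4 changed by -20.7%, and neither gene passed. The list medians were 0.21 for neurons, -0.18 for the oligodendrocyte lineage, -0.19 for astrocytes and -0.05 for neural stem cells. Microglial and endothelial markers summed to at most 14.1 in any library. The part of these shifts in the results below was not tested, and in bulk RNA a change in the mix of cells cannot be told apart from a change in RNA per cell.

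Of the 9 members, 1 rose with Ogt knockdown, Mcl1, and 0 fell. The test was limma on log2(value + 1), with genes called at a Benjamini-Hochberg adjusted p under 0.05 over all 21829 genes tested. It called 4.86% of all genes, 1.96% as higher and 2.9% as lower, and 9.21% of the 11080 genes with a mean value of at least 100, the range in which all members lie. With libraries rescaled to equal totals, 50.3% of the called genes were higher, against 40.3% here. The count of 1 in 9 members is close to 9.21% and is no result about the group. At an unadjusted p under 0.05 there was also 1 member (Mcl1), where 19.3% of all genes tested (4214) passed. The median log2 difference was 0.06 over the members and 0.001 over all genes tested, and the median size of the difference, without sign, was 0.06 over the members and 0.10 over genes of mean at least 100. In 5 members (Bcl2, Mcl1, Bax, Bak1 and Bbc3) both shOGT values lay above both ctrl values, a pattern seen in 25% of all genes tested, and in 0 members did both lie below, against 24.3% of all genes. The shares of these patterns among genes of mean at least 100 were not computed, so that these counts are no result about the group.

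**Figure D1:**
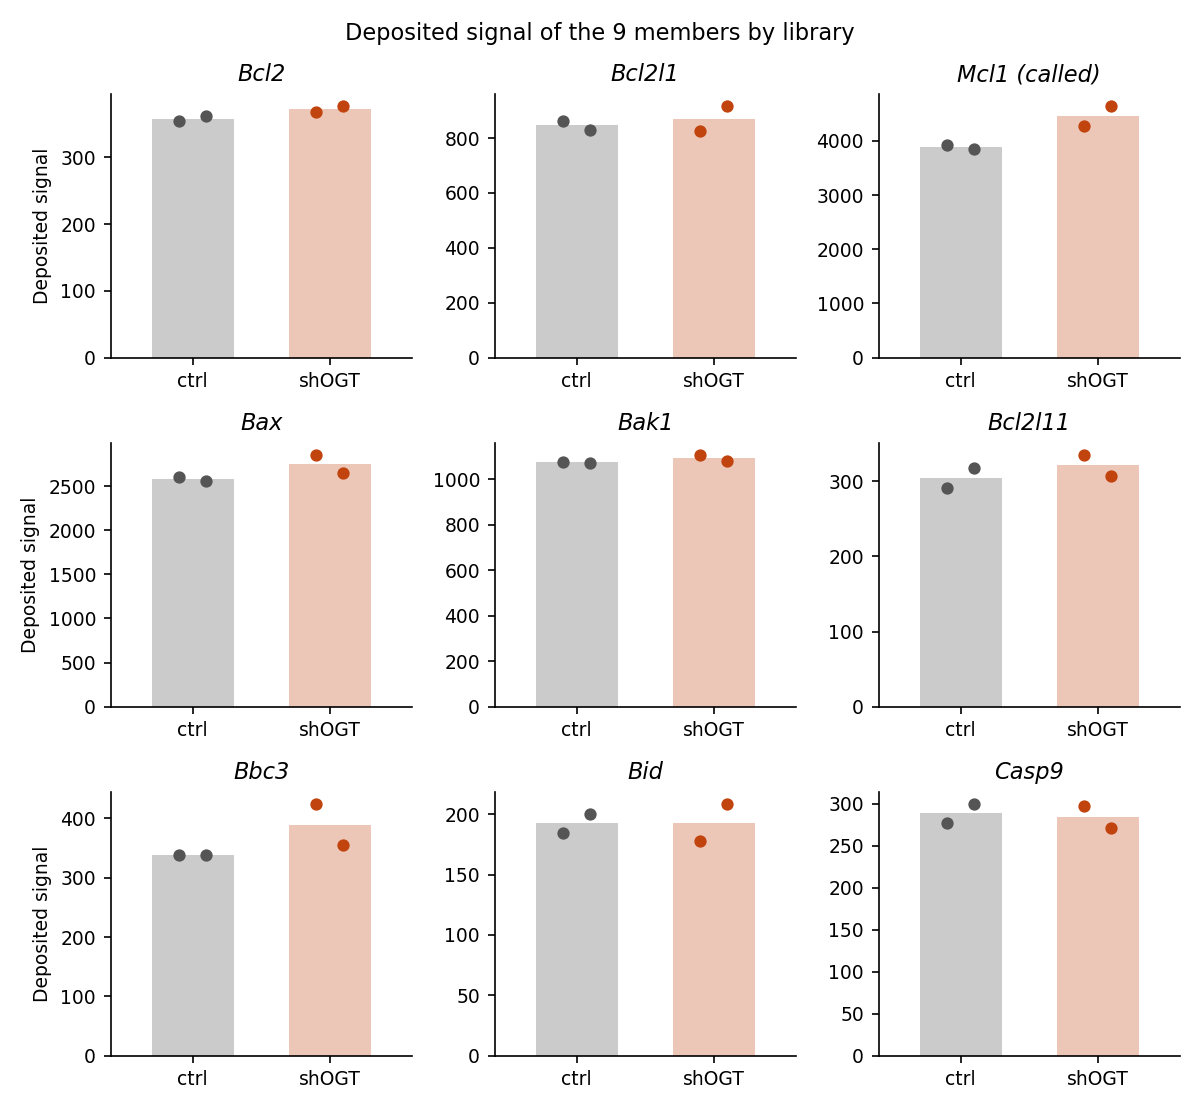
Deposited signal of each of the 9 members. Points are single libraries, bars are means of the 2 libraries of a group, and every axis starts at 0. Mcl1 is the only member whose difference passed the test, and the remaining bars differ by at most 15.1% between the groups.

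Among the prosurvival members, Mcl1 measured 3920 and 3853 in the ctrl libraries and 4284 and 4644 in the shOGT libraries. Both knockdown libraries were thus higher than both controls, by more than the controls differed from each other. The group means were 3887 ± 47.7 and 4464 ± 255 (SD, n = 2 per group), a rise of 14.8%. On the log2 scale the rise was 0.20 ± 0.05 (SE; 95% interval 0.09 to 0.30; limma adjusted p = 0.0422). Mcl1 (ENSMUSG00000038612) lies on the plus strand of chromosome 3 at 95658788 to 95663176 on GRCm38, and its exons overlap no other annotated gene. Its direction was the same in all 14 alternatives, at 0.14 to 0.26, and it passed the threshold in 6 of them. With whole reads recovered from the values, the adjusted p was 0.0137 in edgeR and 0.0165 in DESeq2, whereas a pseudocount of 0.5 gave 0.0515. Leaving out ctrl 1, ctrl 2, shOGT 1 or shOGT 2 gave log2 differences of 0.21, 0.19, 0.26 and 0.14, with adjusted p of 0.397, 0.416, 0.308 and 0.297, in fits that called 0 of all genes.

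**Figure D2:**
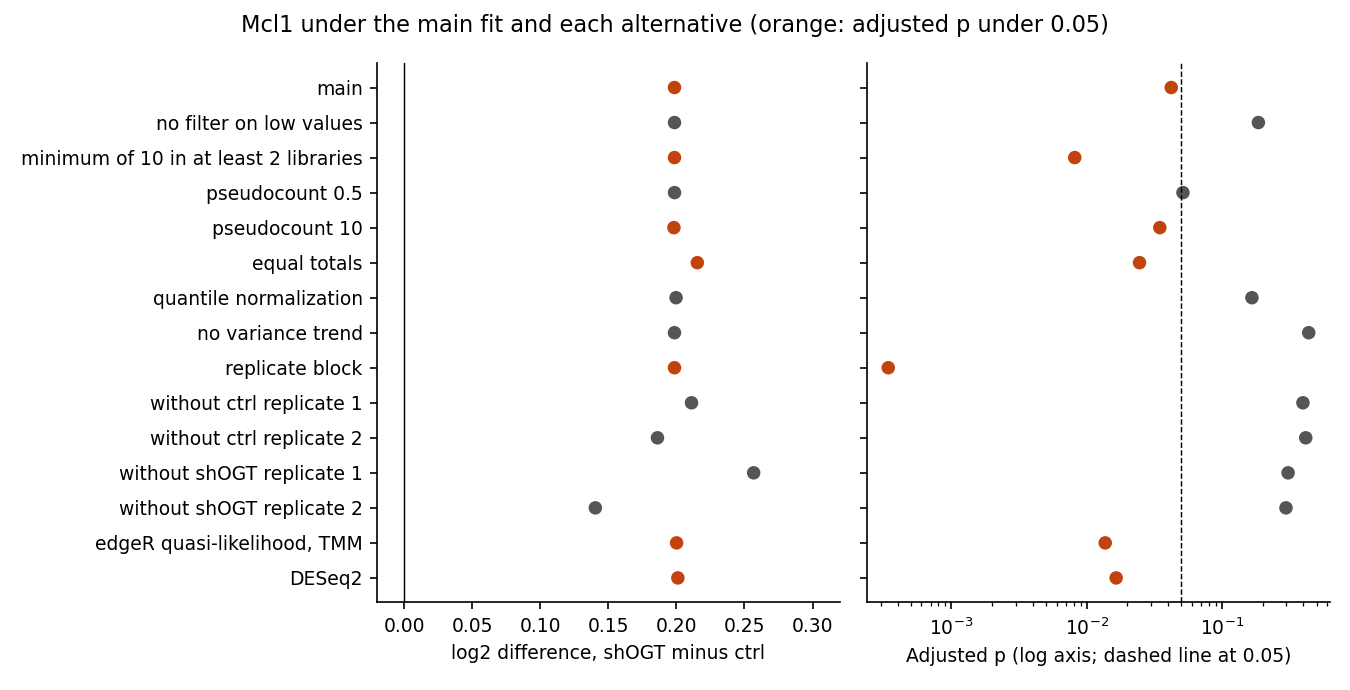
Log2 difference of Mcl1 between shOGT and ctrl (left) and its adjusted p on a log axis (right) in the main fit and 14 alternatives, with orange points where the adjusted p is under 0.05. All differences lie between 0.14 and 0.26, while the adjusted p runs from 0.000341 to 0.438.

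Bcl2, the founding prosurvival gene (ENSMUSG00000057329; chromosome 1, 106538178 to 106714274, minus strand), measured 354 and 362 in the ctrl libraries and 369 and 377 in the shOGT libraries. The groups did not overlap, but the step between them was small beside the spread the model assigns to genes of this level. Its log2 difference was 0.06, with a 95% interval of -0.12 to 0.24 (limma adjusted p = 0.754). Bcl2l1, which encodes BCL-XL (ENSMUSG00000007659; chromosome 2, 152780668 to 152831728, minus strand), measured 862 and 830 in the ctrl libraries and 825 and 916 in the shOGT libraries, so that the groups overlapped. The log2 difference of Bcl2l1 was 0.04 (95% interval -0.11 to 0.19; adjusted p = 0.813), and its sign turned to -0.04 without shOGT 2. Bcl2l1, Mcl1 and Bcl2l11 are known to be spliced into forms with different activity, and these values per gene do not separate the forms.

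The 2 pore-forming members were among the more abundant. Bax (ENSMUSG00000003873; chromosome 7, 45461697 to 45466898, minus strand) measured 2601 and 2554 in the ctrl libraries and 2851 and 2653 in the shOGT libraries, with both shOGT values higher. The log2 difference of Bax was 0.09 with a 95% interval of -0.01 to 0.20 (limma adjusted p = 0.326), and it was 0.04 without shOGT 1 and 0.15 without shOGT 2. Bak1 (ENSMUSG00000057789; chromosome 17, 27019810 to 27029009, minus strand) measured 1077 and 1071 in the ctrl libraries and 1106 and 1081 in the shOGT libraries. These were the narrowest values of the 9 members relative to their level, and the interval of the log2 difference ran from -0.09 to 0.14 around 0.03 (adjusted p = 0.855). Exons of Bak1 overlap Ggnbp1 over 25.5% of their length, and whether strand was used in counting is not stated, so that reads there cannot be assigned to one gene. Those of Bax share 12.2% of their length with Gm45808, an annotated gene on the same strand.

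The 3 BH3-only members act upstream of the pore. Bbc3, which encodes PUMA (ENSMUSG00000002083; chromosome 7, 16308393 to 16318205, plus strand), measured 338 in both ctrl libraries, against 424 and 354 in the shOGT libraries. Its mean in shOGT was 15.1% higher, as large a shift as that of Mcl1, but it rested mainly on shOGT 1: the log2 difference was 0.20 ± 0.10 (SE; 95% interval -0.03 to 0.42; limma adjusted p = 0.32), 0.07 without shOGT 1 and 0.33 without shOGT 2. Bcl2l11, which encodes BIM (ENSMUSG00000027381; chromosome 2, 128126038 to 128162547, plus strand), measured 291 and 317 in the ctrl libraries and 335 and 307 in the shOGT libraries, with overlapping groups (log2 difference 0.08, 95% interval -0.13 to 0.29; adjusted p = 0.717). Bid, whose protein is cut by caspase-8 to link death receptors to the mitochondrion (ENSMUSG00000004446; chromosome 6, 120891930 to 120916853, minus strand), measured 184 and 200 in the ctrl libraries and 178 and 208 in the shOGT libraries. The difference of Bid was 0.0004 (95% interval -0.27 to 0.27; adjusted p = 1.0 after rounding), with 167 to 221 implied reads per library, the fewest of the 9 members. Exons of Bid overlap Bcl2l13 over 17.7% of their length.

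Casp9, the caspase of the apoptosome (ENSMUSG00000028914; chromosome 4, 141793612 to 141815976, plus strand), measured 277 and 300 in the ctrl libraries and 298 and 271 in the shOGT libraries. The groups overlapped, with a log2 difference of -0.02 (95% interval -0.24 to 0.20; limma adjusted p = 0.944). For the 8 members that were not called, the 95% intervals leave room for differences of at most 0.42 upward (Bbc3) and -0.27 downward (Bid) on the log2 scale. They do not show that these genes were unchanged.

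Levels can be compared between genes only per length, and so each value was divided by the merged exon length of the gene in kilobases. Bax was the most abundant member, at 1621 to 1809 per kilobase over the 4 libraries, followed by Mcl1 at 1127 to 1359 and Bak1 at 445 to 459. Bcl2l1 (179.9 to 199.8) and Bbc3 (159 to 199.7) came next and overlapped in range. Casp9 (mean 55.1) and Bid (mean 54.3) overlapped each other in range, as did Bcl2 (38.7 to 41.2) and Bcl2l11 (36.3 to 41.7) at the low end. Among the prosurvival members the order was thus Mcl1, Bcl2l1, Bcl2 in every library. The lengths count every annotated exon, 9.16 kilobases for Bcl2, and which exons these cells use was not measured.

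**Figure D3:**
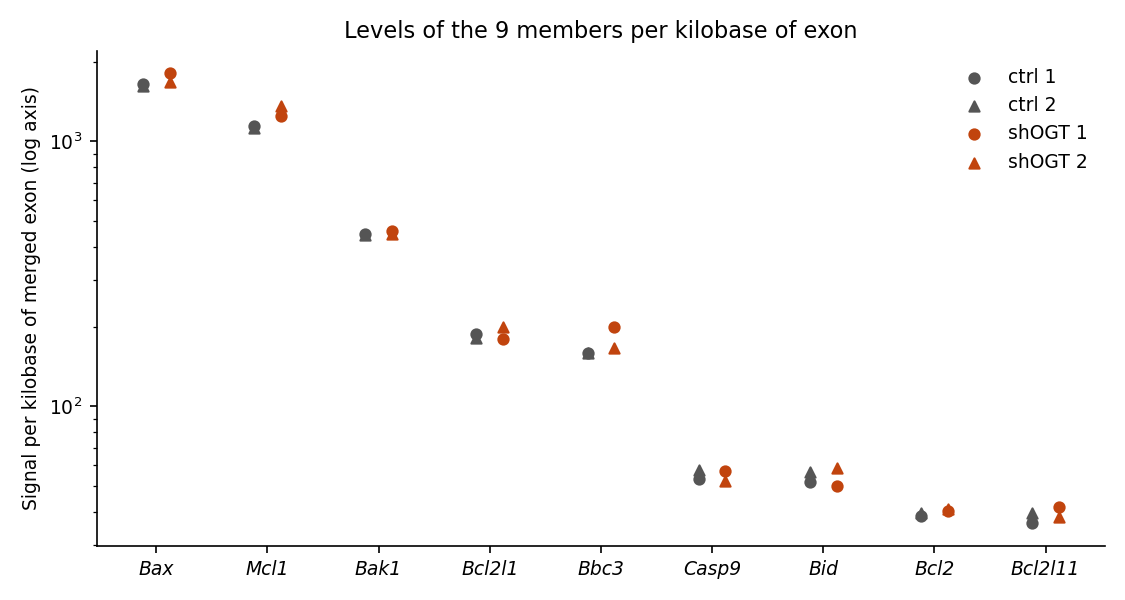
Signal per kilobase of merged exon (log axis) for the 9 members in the 4 libraries. Bax and Mcl1 stand at 1127 or more in every library and Bcl2 and Bcl2l11 lie below 42, while within a gene the groups differ little.

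Ratios of a proapoptotic to a prosurvival member were taken within each library, per kilobase and on the log2 scale, and are given without a test. Bax over Bcl2 was 5.42 and 5.36 in the ctrl libraries and 5.49 and 5.35 in the shOGT libraries. Bax over Bcl2l1 was 3.13 and 3.16 in the ctrl libraries and 3.33 and 3.07 in the shOGT libraries. Bcl2l11 over Mcl1 was -4.98 and -4.83 in ctrl and -4.91 and -5.15 in shOGT, and Bbc3 over Bcl2l1 was -0.24 and -0.19 in ctrl and 0.15 and -0.26 in shOGT. The groups overlapped for all 4 ratios, and each difference of means (0.03, 0.05, -0.12 and 0.16 in that order) was smaller than the pooled SD between replicates (0.07, 0.13, 0.14 and 0.21).

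The rest of the BCL2 family was described from lists of the pathway. Of 4 prosurvival genes tested, 2 were higher, Mcl1 and Bcl2l2, where 1.96% of all genes tested were called higher. With 4 genes, and Mcl1 already counted above, this is no result about the list. Bcl2l2 encodes BCL-W, a relative of BCL-XL known for its role in the testis and in neurons. Bcl2l2 measured 609 and 700.3 in the ctrl libraries and 830 and 820.1 in the shOGT libraries, a rise of the mean from 655 ± 64.3 to 825 ± 7.24 (log2 difference 0.34 ± 0.08, SE; limma adjusted p = 0.0371). Both shOGT libraries were higher, and leaving out ctrl 1, ctrl 2, shOGT 1 or shOGT 2 gave differences of 0.24, 0.44, 0.33 and 0.35. It passed the threshold in 7 of 14 alternatives. Bcl2l2 shares 13.3% of its exon length with Gm20521, an annotated gene on the same strand. The median log2 difference of the prosurvival list was 0.13.

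Of 3 pore-forming genes 0 were called by limma, and 0 had an unadjusted p under 0.05. Bok, the least studied effector, measured 697 ± 56.1 in ctrl and 640 ± 16.9 in shOGT (log2 difference -0.12; adjusted p = 0.414). Of 8 BH3-only genes 0 were called and 0 had an unadjusted p under 0.05, with a median of 0.02 over the 6 whose mean reached 20. Pmaip1, which encodes NOXA, the partner that targets MCL1 for destruction, measured 268 and 232 in the ctrl libraries and 286 and 233 in the shOGT libraries. Bad, the BH3-only protein that growth factor signalling holds inactive, measured 476 ± 20.1 and 434 ± 36.2 (-0.14; adjusted p = 0.425). Of 6 further relatives 0 were called and 1, Bnip3, had an unadjusted p under 0.05 (Bnip2, the next, differed by -0.08 with an adjusted p of 0.389). Bnip3, a mitophagy receptor induced by low oxygen, measured 777 and 645 in the ctrl libraries and 636 and 358 in the shOGT libraries, so that its log2 difference of -0.57 (adjusted p = 0.176) was -0.15 without shOGT 2 and -0.98 without shOGT 1. Bnip3 was called lower in 2 of 14 alternatives, a minimum of 10 (adjusted p = 0.0318) and the replicate block (1.53e-10). With the block the p rests largely on variance borrowed from other genes, and the labels do not say that the numbers pair the libraries.

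**Figure D4:**
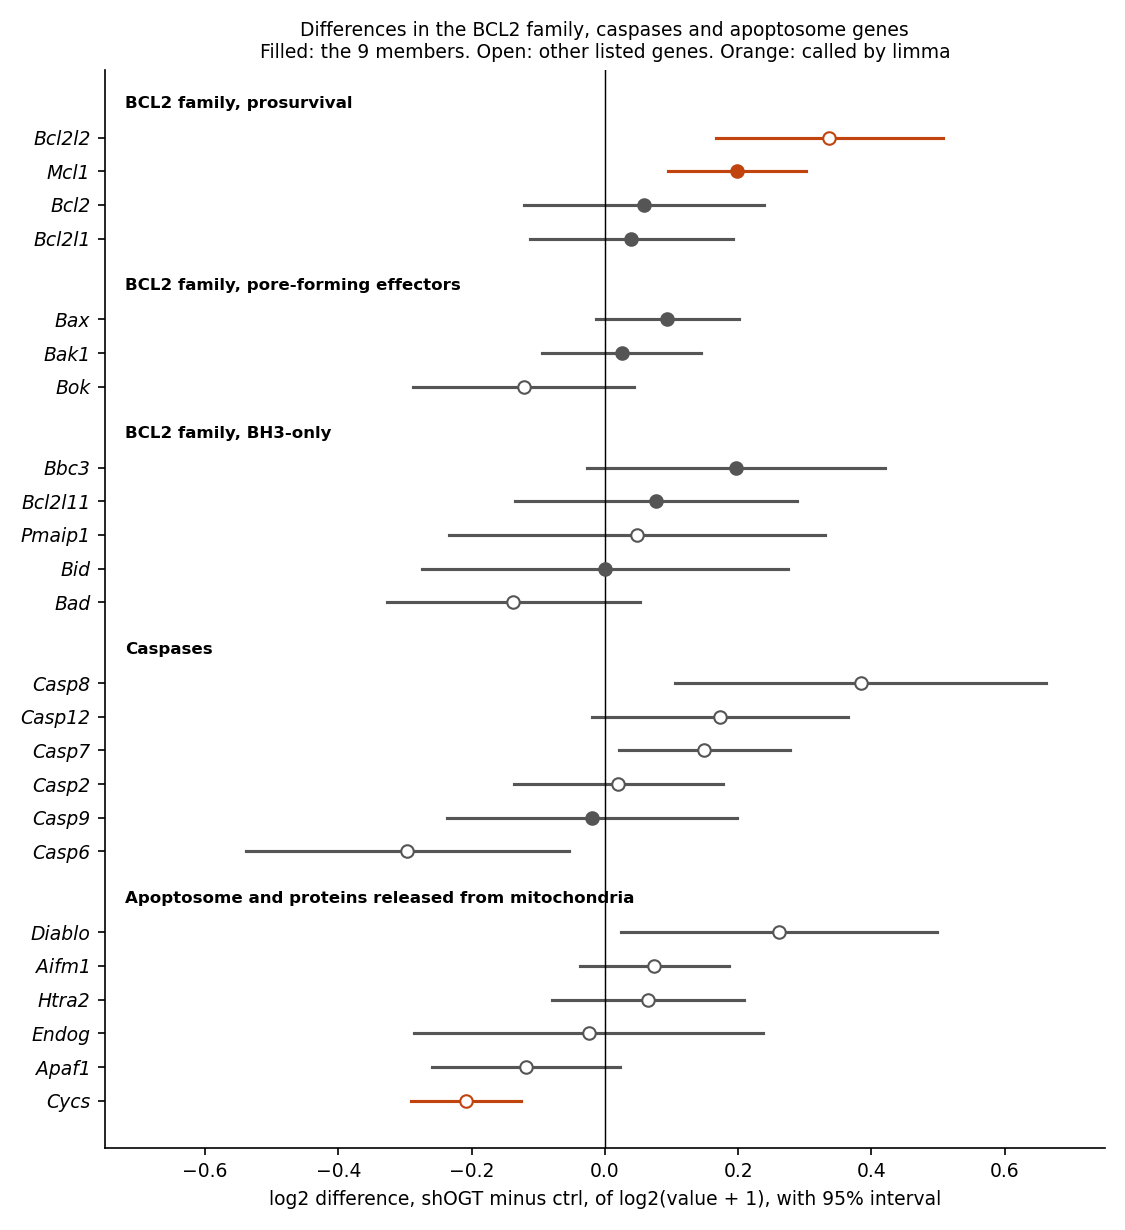
Log2 difference between shOGT and ctrl with its 95% interval, by role, for genes of the prosurvival, pore-forming, BH3-only, caspase and apoptosome lists with a mean of at least 100 in a group (1 gene is not shown). Filled circles are the 9 members, open circles other genes, and orange marks those called by limma, in these lists Mcl1 and Bcl2l2 above 0 and Cycs below.

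Not all of the 9 caspases tested act downstream of the pore, and 0 were called (3 at an unadjusted p under 0.05, which 19.3% of all genes reached). Of 6 genes of the apoptosome and of proteins released from mitochondria 1 was called, where 4.86% of all genes tested were. Cycs, the gene of somatic cytochrome c, measured 4918 and 4839 in the ctrl libraries and 4232 and 4214 in the shOGT libraries. It fell by 0.21 on the log2 scale, from 4878 ± 55.7 to 4223 ± 12.6 (SE 0.04; limma adjusted p = 0.0146). Over the 14 alternatives its log2 difference ran from -0.22 to -0.19, and it passed the threshold in 7 of them. Processed pseudogenes of Cycs are known, and reads shared with them could be split by the counting, so that the value of this gene is uncertain. Apaf1, the scaffold of the apoptosome, measured 845 and 861 in the ctrl libraries and 813 and 759 in the shOGT libraries (-0.12; adjusted p = 0.344). Casp8, the initiator caspase of death receptors, measured 125 ± 0.233 and 163 ± 3.79 (0.38 ± 0.12; adjusted p = 0.121), and Casp6 216 ± 9.96 and 176 ± 0.817 (-0.30 ± 0.11; adjusted p = 0.168). Diablo, which encodes an antagonist of the inhibitor of apoptosis proteins, measured 186 ± 4.92 and 223 ± 7.66 (0.26; adjusted p = 0.211), and its exons overlap other genes over 42.8% of their length.

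In 4 further lists of the pathway 0 genes were called: 7 inhibitor of apoptosis genes, 8 of the death receptor pathway, 7 caspase substrates and 6 genes of turnover and partners of BCL2 proteins. At an unadjusted p under 0.05 the counts were 2, 1, 1 and 4, against 19.3% of all genes tested. The median log2 differences over all tested genes of these lists were 0.55, 0.13, 0.01 and 0.07. The first includes genes whose mean was under 20, and over the 4 inhibitor of apoptosis genes whose mean reached 20 it was 0.17. Birc6, a giant ubiquitin ligase that restrains caspases, was just past the limit at 2708 ± 25.0 in ctrl and 3116 ± 187 in shOGT (0.20 ± 0.05; limma adjusted p = 0.0508), and it was called in 6 of 14 alternatives. Naip2 measured 7.98 and 4.96 in the ctrl libraries and 19.1 and 16.0 in the shOGT libraries, few reads in each (adjusted p = 0.121). In the death receptor list, the log2 difference of the receptor Fas was 0.27 and that of its adaptor Fadd 0.23 (adjusted p = 0.278 and 0.217). Acin1, a caspase substrate that acts in chromatin condensation, differed by 0.13 (adjusted p = 0.115), and Xkr8, a caspase-activated scramblase, 0.20 (adjusted p = 0.543). Usp9x, a deubiquitinase known to stabilise MCL1, measured 3755 and 3694 in the ctrl libraries and 4020 and 4009 in the shOGT libraries (0.11 ± 0.04; adjusted p = 0.153), and Ywhaz, a member of the 14-3-3 family, which holds BAD, differed by 0.11 (adjusted p = 0.12). Huwe1, a ubiquitin ligase of the same list known to mark MCL1 for destruction, differed by 0.10 in the same direction (adjusted p = 0.153).

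Of 8 transcription factors known to act on members, 2 were called higher and 0 lower, where 1.96% and 2.9% of all genes tested were. At a minimum of 10 and with the replicate block, 3 genes of the list were called. So short a list gives no result about the group. Trp53, which encodes p53, an activator of Bax, Bbc3 and Pmaip1, measured 1297 and 1289 in the ctrl libraries and 1521 and 1582 in the shOGT libraries (log2 difference 0.26 ± 0.05, SE; limma adjusted p = 0.0198). Its relative Trp73 measured 4.99 and 9.92 in the ctrl libraries and 25.5 and 26.4 in the shOGT libraries, a log2 difference of 1.74 ± 0.42 at a low level (adjusted p = 0.0489). Over the alternatives the difference of Trp53 ran from 0.23 to 0.29, and it was called in 7 of 14. That of Trp73 ran from 1.06 to 2.17, and it was called in 5 of 13. The 3 listed p53 targets of the BCL2 family did not pass the test, at 0.09 (Bax), 0.20 (Bbc3) and 0.05 (Pmaip1, adjusted p = 0.886). Stat3, a known activator of Mcl1 and Bcl2l1, measured 3899 and 4110 in the ctrl libraries and 3537 and 3717 in the shOGT libraries (-0.14 ± 0.04; adjusted p = 0.113). Foxo3, a known activator of Bcl2l11 and Bbc3, measured 1283 and 1309 in the ctrl libraries and 1415 and 1348 in the shOGT libraries (0.09; adjusted p = 0.387). Whether any of these factors acted on the members in these cells was not tested.

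Over all lists together, members included, 4 of 72 tested genes were higher and 1 was lower, a share between the 4.86% of all genes and the 9.21% of genes of mean at least 100, and so no result about the pathway. Their median log2 difference was 0.05. As a description, the genes whose course over the 4 libraries was nearest to that of Mcl1 were sought among 11079 genes of mean at least 100, by the Euclidean distance between deviations of log2(value + 1) from each gene's own mean. They were Sez6l, Ankrd12 and Nxpe4, at distances of 0.018, 0.019 and 0.022, where the other 8 members had a median distance of 0.22. Their log2 differences were 0.18, 0.20 and 0.20 (limma adjusted p = 0.0689, 0.167 and 0.0996).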

How the data were processed

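The deposited files hold 1 signal value per gene and library, normalized by the authors. The labels' processing notes name the build mm10, while the aligner, counter, annotation and scaling were not given in the sources used here. Within each library 100% of values were whole multiples of the smallest (tolerance 0.01 of that step), as when read counts are divided by 1 factor, and the implied whole reads served the count tests. Symbols, positions and exon lengths came from GENCODE M21 on GRCm38, which matched 25242 identifiers. Listed genes without a row in the files were not analysed here.

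Genes reaching 1 in 2 or more libraries were tested with limma 3.58.1 (R 4.3.3) on log2(value + 1), with a variance trend. Differences are on that scale, which understates changes of low genes. The alternatives changed filter, pseudocount, scaling, variance model or libraries, added the replicate block, or used edgeR 4.0.16 (quasi-likelihood, 666 genes higher and 925 lower) and DESeq2 1.42.0 (329 and 492).

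Replicates of a group differed by more than sampling noise: chi-square per gene over genes with at least 20 reads was 2.02 between ctrl and 3.33 between shOGT libraries, where noise alone gives about 1. With 2 libraries a group, the smallest two-sided p of an exact permutation test is 0.333, and limma's model-based p is given for single genes. The members and the lists were chosen with earlier results of these data known. Named genes are the members, Ogt, called genes of the lists, the 2 smallest unadjusted p per list and the 3 genes nearest to the member of smallest p. Other genes (Apaf1, Pmaip1, Huwe1, Stat3, Foxo3 and the marker genes) were named for their known role after their values were seen. The values of 1 listed gene are not reported here, though it stays in the counts and medians of its list.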

Additional observations from a re-analysis of the deposited data

How the results depend on the processing

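No member was called lower in the main fit or in any of the 14 alternatives, and Mcl1 was the only member called in any. The count of members called higher fell from 1 to 0 with a pseudocount of 0.5, and without a filter, with quantile normalization and without the variance trend, where also 0 genes were called higher or lower over all genes and over the apoptosis lists. In these last 3 fits 4302, 3998 and 2763 genes had an unadjusted p under 0.05, while edgeR called 666 higher. Without 1 library at a time the members called, all genes called and list genes called were 0 in each fit (2484 to 3389 genes at an unadjusted p under 0.05), and the median over the lists ran from 0.039 to 0.071. Each such fit has 1 lone library in a group, which is assumed to vary like the other group. At a minimum of 10 the counts over all genes were 822 higher and 1133 lower, with 3 listed genes lower. A pseudocount of 0.5 left 2 listed genes higher. The median over the lists was 0.066 with libraries rescaled to equal totals and 0.060 with quantile normalization, and equal totals moved the share of higher genes among all calls from 40.3% to 50.3%.

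With the replicate number as a block, 1007 genes were higher and 1295 lower, with 3 listed genes lower. The labels do not say that a number marks a shared batch, and deviations of same-numbered libraries from their group means had a correlation of 0.02 across 11080 genes, so that the numbers were not taken to pair the libraries.

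Among members that were not called, the sign of Bid turned with quantile normalization (-0.0050), and without 1 library at a time it ran from -0.11 to 0.12. Without 1 library at a time Casp9 ran from -0.086 to 0.047 and Bcl2l1 from -0.036 to 0.12. Xkr8, a listed gene that is not a member, ran from -0.0047 to 0.40. The cause of these changes was not tested.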
